A study of Mus musculus with 16 samples.

Results

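Microglia labelled IRF8KO were compared with WT microglia at postnatal day 14 (P14), 3 libraries against 3 of 16 in the series, and the changed genes were sorted into neuronal or glial transcripts and macrophage transcripts. All samples were microglia of female mice, taken from each brain without enzymes, sorted by FACS into TRIzol and turned into full-length cDNA with SMART-Seq v4. The other libraries were 3 WT and 3 IRF8KO at P9 and 2 WT and 2 IRF8KO at 3 months, called adults here, whose titles carry batch 2. No treatment was given to any group, and the labels name no allele, strain, clone or litter, so it is unknown which part of Irf8 the IRF8KO mice lack. Nothing says that libraries of a group are separate animals, and the p-values measure only the spread between these samples. No sample was dropped.

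IRF8, one of the interferon regulatory factors, controls transcription in microglia, macrophages and dendritic cells. It binds DNA weakly alone and pairs with the ETS factor PU.1, encoded by Spi1, on composite elements that join an ETS site to an IRF site. Interferon regulatory factors also bind the interferon-stimulated response element, a repeat of GAAA, upstream of antiviral genes. Microglia are the macrophages of the brain parenchyma and engulf synapses, myelin and dying cells. Border-associated macrophages live in the meninges, around vessels and in the choroid plexus and carry another set of surface markers.

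The 6 P14 libraries held 13551190 to 14581368 gene reads in WT and 10423268 to 11666782 in IRF8KO. Reads mapped once but outside genes made up 6.39%, 9.12% and 13.6% of uniquely mapped reads in WT and 21% to 23.2% in IRF8KO, so the groups did not overlap. With this share as a covariate 2684 genes were called higher and 797 lower. IRF8KO library 3 stood apart, with correlations of 0.861 and 0.890 to the other IRF8KO libraries, against 0.945 to 0.971 within groups otherwise. Irf8 itself (ENSMUSG00000041515.10, chr8:120736358-120756694 on mm10) read 1215, 882 and 735 counts per 1000000 gene reads (CPM) in WT and 603, 682 and 894 CPM in the libraries labelled IRF8KO. The groups overlapped, and the log2 fold change was -0.38 ± 0.32 (SE; edgeR adjusted p = 0.395). With the share of reads outside genes as a covariate its direction turned (0.72, adjusted p = 0.0474). These counts per gene do not show a deletion and so do not check the labels. Of the microglial markers Tmem119 (11890 to 17180 CPM in WT, 3489 to 7983 in IRF8KO) and Csf1r (23150 to 35930 and 9801 to 13080) were abundant in all 6 libraries.

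At P14 6222 of 18295 tested genes passed the test (34%; edgeR quasi-likelihood, adjusted p below 0.05), 4235 higher in IRF8KO (23.1%) and 1987 lower (10.9%). Scaling to a list of pan-macrophage genes in place of all genes moved the split to 5742 higher and 822 lower, and moved the median log2 fold change of all genes from 0.37 to 0.91. Most higher genes were of low level, with a median of 3.83 CPM in IRF8KO and 1193 of the 4235 at 10 CPM or more. The lower genes had a median of 27.8 CPM in IRF8KO. The groups did not overlap for 4020 of the higher and 1957 of the lower genes, where 28.7% and 16.5% of all tested genes had every IRF8KO library above or below WT. In bulk RNA, fewer cells of a type and less RNA per cell cannot be told apart.

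The P9 contrast, which shares no library with P14, divided the higher genes into 3 groups. At P9 2855 genes passed the test (15.6%), 778 higher (4.25%) and 2077 lower (11.4%). Of the 4235 genes higher at P14, 481 were also higher at P9 (2.63% of all tested genes), 2417 did not pass at P9, and 1337 were lower at P9. The interaction test of P14 against P9 called 3857 of all genes (21.1%). The effect was higher at P14 for 18.2% of all genes and lower for 2.86%. Of the 4235 higher genes 2881 had a higher effect at P14 (68%, beside 18.2%). Of the 1987 lower genes 425 had a lower effect at P14 (21.4%, beside 2.86%). Both sets were picked by the P14 effect, which enters the interaction, so these shares are raised by the choice. Of the 1987 lower genes, 426 were also lower at P9 (2.33% of all tested genes), 1560 did not pass and 1 was higher. Calls in opposite directions at the 2 ages made up 7.31% of all tested genes.

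These groups held different listed genes and different shares of the reads. The 481 genes higher at both ages took 1.35% of gene reads in WT and 17% in IRF8KO at P14, of which Apoe alone made 0.595% and 13%. They held 55 members of the macrophage lists, 1 glial gene (Cspg4) and no neuronal gene. The 1337 genes higher at P14 and lower at P9 took 0.0696% of reads in WT and 1.34% in IRF8KO, and held 61 neuronal, 4 glial and 2 macrophage list members. The 2417 others took 0.69% and 2.9% and held 28 neuronal, 35 glial and 30 macrophage list members. The tested lists differ in size, with 105 neuronal, 57 glial and 375 macrophage genes among 18295. The 30 macrophage members were thus the smallest part of their lists. The 1987 lower genes took 41.8% of reads in WT and 20.3% in IRF8KO, and held 93 macrophage list members, 2 glial and 1 neuronal. The 37 lists hold 682 genes and name only 229 of the higher and 109 of the lower calls, so that most calls have no class from a list. The macrophage lists include general functions, such as cell cycle and lipid handling, that other cells share.

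**Figure D1:**
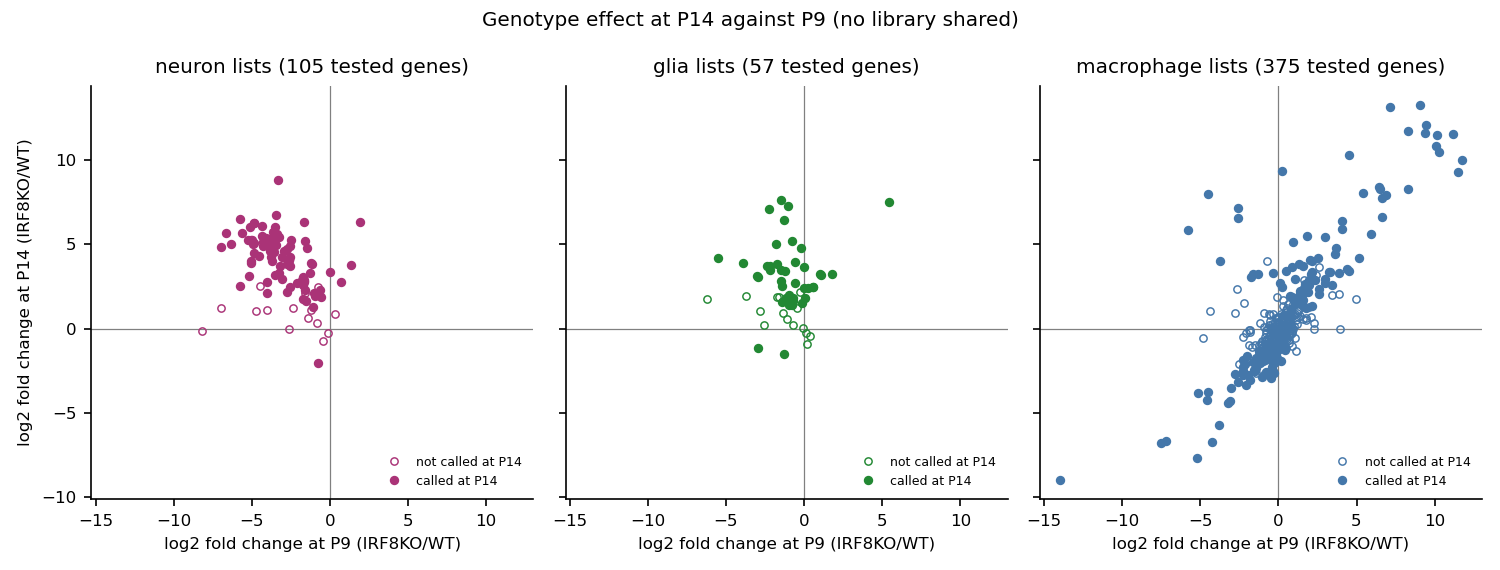
Log2 fold change (IRF8KO over WT) at P14 on the vertical axis against P9 on the horizontal axis, one point per tested list gene, filled where called at P14, for the neuron (105 genes), glia (57) and macrophage (375) lists. Neuronal genes lie high at P14 and low at P9 (medians 4.03 and -3.27), while macrophage genes lie along the diagonal on both sides of 0.

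The neuronal lists moved together at P14. Of 105 tested neuronal genes, 89 rose and 1 fell (Bsn), which is 84.8% and 0.952% beside 23.1% and 10.9% of all tested genes. The median log2 fold change was 4.03 against 0.37 for all genes (3.84 with the 6 genes at 0 reads in WT set to their lower bound). At P9, 68 of the 105 fell and 0 rose (11.4% and 4.25% of all genes), with a median of -3.27, and the interaction was called for 94 (18.2% of all genes were called higher in it). In adults 0 of the 89 risen genes passed the test in either direction (median log2 fold change 0.07, where 3.14% of all genes passed, 1.65% higher and 1.49% lower). The neuronal genes together held 0.0311%, 0.0290% and 0.0386% of gene reads in the WT libraries and 0.150%, 0.184% and 0.347% in the IRF8KO libraries (exact two-sided permutation p = 0.1, the smallest that 3 against 3 can give). The 2 groups did not overlap, and IRF8KO library 3 was the highest. It was the highest for 87 of the 89 risen neuronal genes, beside 3241 of all 4235 higher genes. The means at P9 were 0.0867% in WT and 0.0208% in IRF8KO, and in adults 0.294% and 0.340%.

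Among genes of the postsynaptic density and glutamate receptors, 19 of 20 rose and 0 fell (median 4.51 against 0.37 for all genes). Shank1, a scaffold of excitatory synapses, read 5.03, 0.773 and 3.81 CPM in WT and 51.7, 95.2 and 497 CPM in IRF8KO, a log2 fold change of 6.07 ± 0.80 (adjusted p = 3.6e-05) against -4.34 at P9. Gria2, a subunit of AMPA receptors, read 8.22, 2.49 and 4.60 CPM in WT and 77.2, 118 and 382 CPM in IRF8KO, 5.24 ± 0.65 on the log2 scale (adjusted p = 2.2e-05) against -5.26 at P9. The NMDA receptor subunits Grin1, Grin2a and Grin2b and the kinase subunit Camk2a rose by 3.89 to 5.42. In each of these genes every IRF8KO library lay above every WT library. Dlgap1 was the member that did not pass (1.23 ± 0.60, adjusted p = 0.12).

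Of 28 genes of the axon, cytoskeleton and ion channels, 26 rose and 0 fell. Mapt, which encodes the microtubule protein tau, read 0.719, 2.40 and 1.35 CPM in WT and 35.4, 49.8 and 125 CPM in IRF8KO (5.53 ± 0.59, adjusted p = 5.4e-06). Scn8a, a sodium channel of axons, rose by 5.45. Kcna1 had 0 reads in all WT libraries and 2.48, 2.97 and 8.14 CPM in IRF8KO. Rbfox3, whose protein NeuN marks neuronal nuclei, read 2.06 to 4.31 CPM in WT and 31.1 to 154 CPM in IRF8KO. The 2 members that did not pass were Tubb3 (1.21) and Elavl4 (-0.16).

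Presynaptic genes were less uniform, with 12 of 20 higher and 1 lower. Snap25, a fusion protein of synaptic vesicles, read 0.924, 0.172 and 0.317 CPM in WT and 9.04, 12.4 and 43.7 CPM in IRF8KO (5.54 ± 0.79, adjusted p = 6.7e-05). Syt1, the calcium sensor of release, rose by 4.53, and Sv2b by 5.73. Bsn, an active zone scaffold, fell from 44.5, 35.2 and 26.2 CPM to 6.57, 10.6 and 8.86 CPM (-2.02 ± 0.34, adjusted p = 2.6e-04). Genes of the list that read 20 CPM or more in every WT library, such as Vamp2, Sv2a and Rab3a, did not pass at P14, except for Bsn.

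Genes of each neuron type rose. Of 11 glutamatergic genes 9 rose, of 13 GABAergic genes 13 rose, and of 13 cerebellar genes 10 rose, with 0 lower in each. Slc17a7, the vesicular glutamate transporter of cortical and cerebellar neurons, read 2.15 to 3.08 CPM in WT and 18.2, 35.2 and 75.9 CPM in IRF8KO (4.04 ± 0.55, adjusted p = 4.9e-05). Gad1, which makes GABA, read 0 to 0.205 CPM in WT and 1.68, 2.73 and 6.46 CPM in IRF8KO. Gabra6, a receptor subunit of cerebellar granule cells, read 0 to 0.103 CPM in WT and 1.24 to 8.02 CPM in IRF8KO. Zic1, abundant in cerebellar granule cells, rose by 3.98.

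Glial genes rose too, by less. Of 57 tested glial genes, 40 rose and 2 fell (Cnp and Slc1a3), which is 70.2% and 3.51% beside 23.1% and 10.9% of all tested genes. The median was 2.42 against 0.37 for all genes. At P9 1 of the 57 rose and 7 fell, beside 4.25% and 11.4% of all genes, so the share that fell was near the background. The P9 median was -1.05 against -0.09 for all genes. By the interaction test 33 of the 57 had a higher effect at P14, beside 18.2% of all genes. The glial genes held 0.0676%, 0.0584% and 0.0732% of gene reads in WT and 0.129%, 0.157% and 0.218% in IRF8KO (exact two-sided permutation p = 0.1). With the share of reads outside genes in the model 22 rose, and the median was 2.67. In astrocyte genes, 14 of 19 rose, among them Aqp4, the water channel (0.0793 to 0.103 CPM in WT, 2.51 to 5.0 in IRF8KO), Slc1a2, a glutamate transporter (3.40 ± 0.54), and Aldoc (2.67 ± 0.51). Slc1a3, also a glutamate transporter, fell from 33.1, 38.1 and 60.1 CPM to 20.1, 17.9 and 21.5 CPM, and fell at P9.

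Of 20 genes of myelinating oligodendrocytes, 13 rose and 1 fell. Mbp, myelin basic protein, was the most abundant risen glial gene, with 172, 91.6 and 133 CPM in WT and 386, 534 and 1242 CPM in IRF8KO (2.45 ± 0.39, adjusted p = 1.6e-04). Cnp fell at both ages, from 216 to 322 CPM in WT to 63.6 to 136 CPM in IRF8KO at P14. Of 15 oligodendrocyte precursor genes 11 rose, and Cspg4, which encodes NG2, was set apart by its size. It read 0.924, 0.0858 and 0.0793 CPM in WT and 53.5, 93.4 and 42.0 CPM in IRF8KO (7.51 ± 0.66, adjusted p = 6.9e-07), it also rose at P9 (5.46), and IRF8KO library 3 was its lowest. Among the 40 risen glial genes, Cspg4 was the only 1 that rose at both ages.

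**Figure D2:**
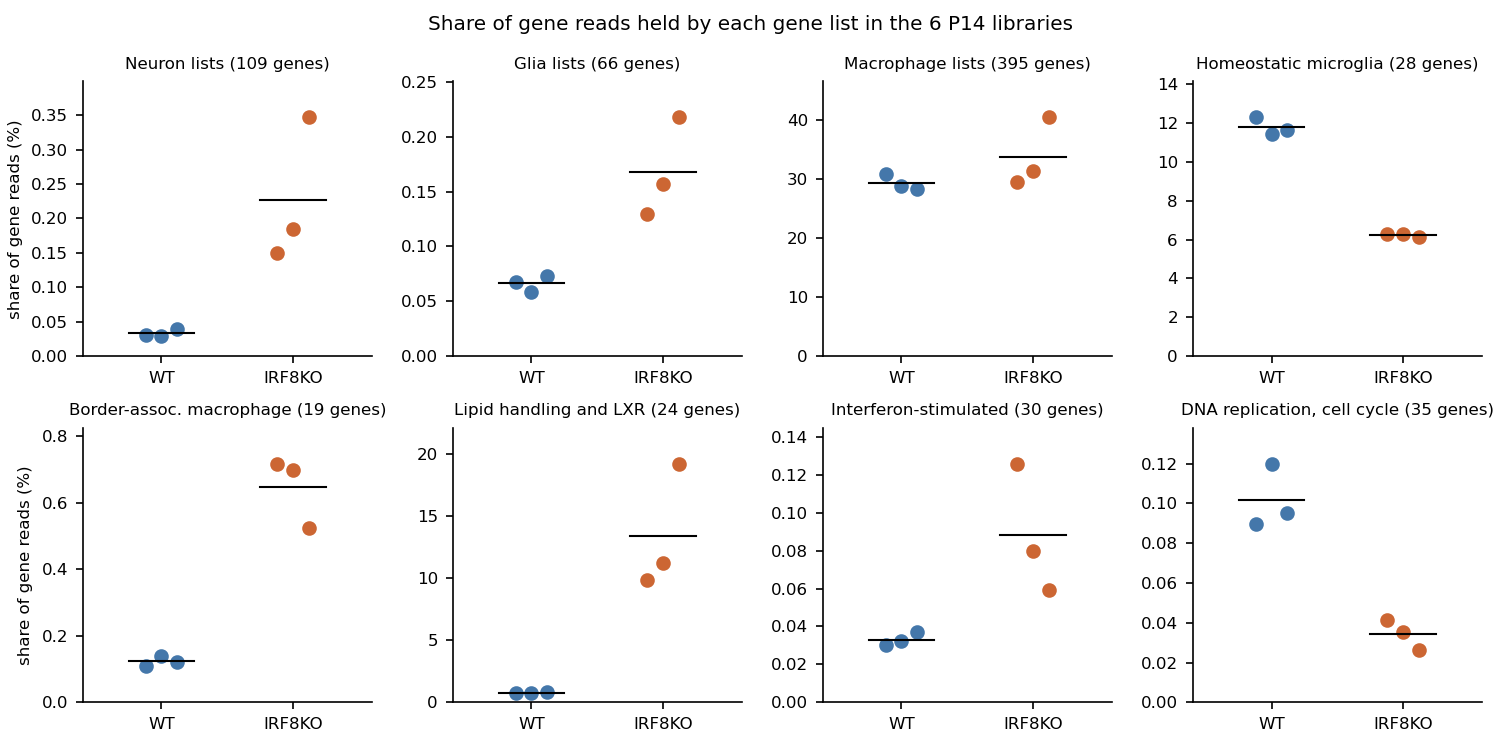
Share of gene reads in percent held by each gene list in each of the 6 P14 libraries, one point per library, with the group mean. IRF8KO library 3 is the highest in the sums over all neuronal and all glial lists (0.347% and 0.218%), and the homeostatic microglia list falls from 11.4% to 12.3% in WT to 6.15% to 6.29% in IRF8KO.

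With the mean log2 CPM of the neuron lists in the model as a covariate, over all 16 libraries, 159 of the 4235 higher and 165 of the 1987 lower calls remained. This level lay at -0.28 to 0.33 in WT and 2.45 to 4.09 in IRF8KO at P14, so it cannot be told apart from genotype within that age, and the median SE rose from 0.57 to 1.33. By class 0 of 89 neuronal, 1 of 40 glial (Cspg4) and 35 of 87 macrophage rises remained, with 17 of 93 macrophage falls. The neuronal median moved to 0.33 and the glial median to -0.43, beside 0.26 for all genes. For neuronal genes the covariate is built from the same genes and the result is fixed by construction. Of the 481 genes higher at both ages 125 remained, of the 2417 not called at P9 34, and of the 1337 lower at P9 0. Among the genes that remained were Clec7a, Cd163, Cd38, Pf4, Mrc1, Siglec1, Dab2, Ms4a7, Apoc1, Apoc4, Gdf3, Runx2, Oas2 and Oasl2, and the falls of Spint1, Sall1, Ctsh, Serpine2, Adora3, Cd74, Batf3, Sparc and Ighm.

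**Figure D3:**
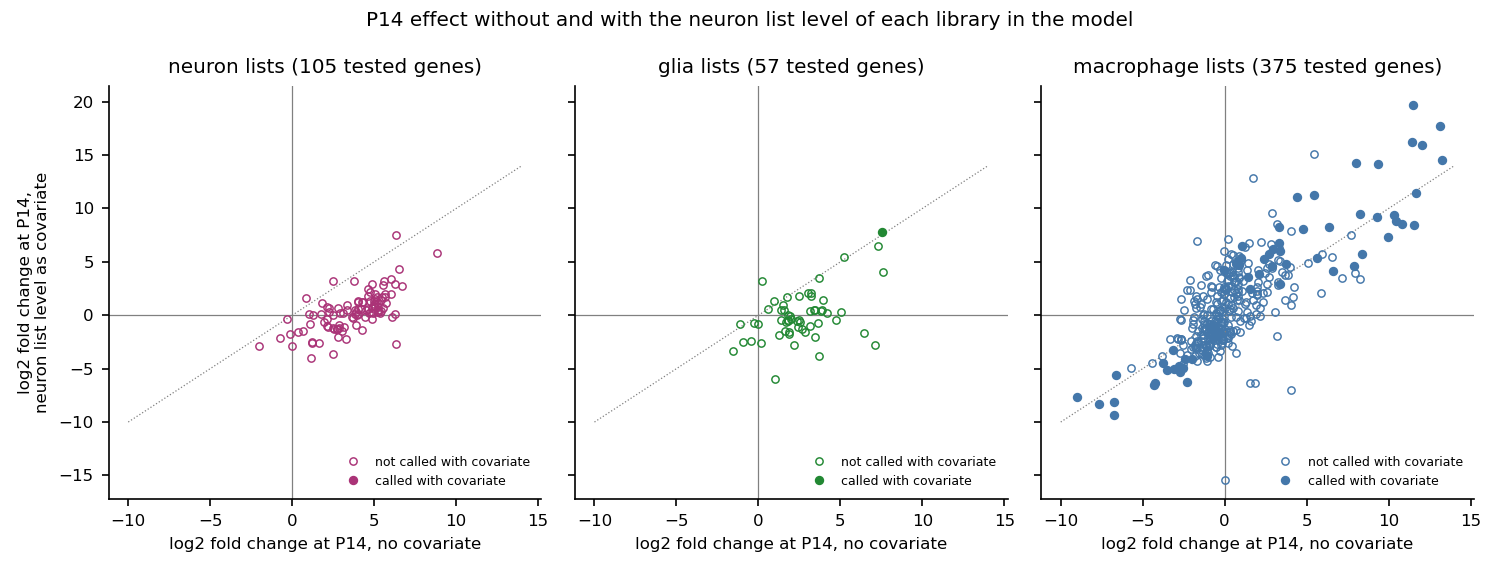
Log2 fold change at P14 with the neuron list level of each library in the model (vertical axis) against the value without it (horizontal axis), one point per tested list gene, filled where called with the covariate. Neuronal genes drop to a median of 0.33 and 0 are filled, while 40 macrophage genes are filled high and 18 low.

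Over all macrophage lists 87 of 375 genes rose (23.2%, beside 23.1% of all tested genes) and 93 fell (24.8%, beside 10.9%), with a median of -0.12 against 0.37. The share that rose was thus at the background. At P9 68 of the 375 rose and 39 fell, beside 4.25% and 11.4% of all tested genes. At that age the share that rose lay above the background and the share that fell was near it. Pan-macrophage genes shared with all tissue macrophages gave 1 rise and 8 falls among 30, the rise being Cybb, an oxidase subunit with 0 reads in WT and 1.32 to 9.13 CPM in IRF8KO. Aif1, which encodes Iba1, fell from 176 to 334 CPM to 16 to 43.9 CPM and Coro1a, an actin regulator, by 2.30. Among the macrophage lists, the genes of homeostatic microglia fell. Of 28 tested genes 15 were lower and 0 higher (10.9% and 23.1% of all genes), with a median of -1.04, and at P9 7 were lower. Their summed level was 12.3%, 11.4% and 11.6% of gene reads in WT and 6.29%, 6.28% and 6.15% in IRF8KO. Sall1, a zinc finger factor that maintains microglial identity, fell from 125, 194 and 235 CPM to 0.219, 0.312 and 0.598 CPM (-8.99 ± 0.72, adjusted p = 7.2e-07). Adora3, an adenosine receptor, fell from 38.9 to 51.6 CPM to 0.239 to 0.511 CPM. Slc2a5, a fructose transporter, fell by 3.51 and Sparc, a matricellular protein, by 3.15, and both fell at P9 too. Tmem119 (-1.40), P2ry12 (-2.10), Cx3cr1 (-1.85) and Csf1r (-1.38) fell at P14 and did not pass at P9. The P9 to P14 difference of these 4 genes did not pass (interaction adjusted p 0.18 to 0.98). Trem2, Gpr34 and Mef2c did not pass at P14. With scaling to the pan-macrophage list 9 homeostatic genes were lower (median -0.44, where that of all genes was 0.91). With the neuron list level in the model, which cannot be told apart from genotype at P14, 5 were lower (median -1.32).

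Levels of long and short transcripts differed between libraries of the same group. P2ry12 read 358, 1253 and 1405 CPM in WT and 365, 286 and 50.1 CPM in IRF8KO, so that the groups overlapped, and P2ry13 (160 CPM) and Cx3cr1 (525 CPM) were also lowest there. Across 7884 genes with a mean of at least 10 CPM, IRF8KO library 3 fell below the other IRF8KO libraries as transcripts became longer (Spearman rho -0.45), and WT library 1 did so among WT (-0.51). In genes under 1 kb the median difference of library 3 from the other IRF8KO libraries was 1.25 on the log2 scale and in those over 6 kb -0.42. The genotype difference also moved with length across these genes (Spearman rho 0.27), with a median IRF8KO minus WT of -0.48 on the log2 scale at 1 to 2 kb and 0.49 over 6 kb. Without IRF8KO library 3 and WT library 1 these medians were -0.59 and 0.41. The 44 neuronal genes among them had a median length of 6386 bases, the 264 macrophage genes 2981 and all 7884 genes 3473. Homeostatic genes had a median of 2357 bases, interferon-stimulated genes 2562, border-associated genes 3270 and cell cycle genes 3334. At 2 to 4 kb the median IRF8KO minus WT over the 7884 genes was -0.41 on the log2 scale. The part of length in the neuronal rises and in the changes of the macrophage lists was not tested. Without both of these libraries 73 neuronal and 26 glial genes rose, and 11 homeostatic genes fell. Genes and libraries were not adjusted for length.

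The 15 largest falls among genes with at least 10 CPM in WT all fell at P9 too. Spint1 (chr2:119237362-119249527, mm10), an inhibitor of membrane serine proteases, read 582, 434 and 398 CPM in WT and 0 in all IRF8KO libraries (at least 5379-fold lower, against a floor of 3 reads over the group; adjusted p = 5.77e-08). Tnfrsf17, which encodes the plasma cell receptor BCMA (at least 304-fold lower), Klk8, a serine protease (at least 280-fold), and Gimap1, a lymphocyte GTPase (at least 258-fold), likewise had 0 reads. Ighm, the immunoglobulin mu chain, fell from 777, 531 and 486 CPM to 2.48, 2.26 and 1.32 CPM (-8.18 ± 0.43, adjusted p = 9.5e-09), and Batf3, which works with IRF8 in dendritic cell development, from 21.1 to 32.1 CPM to 0 to 0.234 CPM. Mrc2, Pmp22, Upk1b, Adgrg5, P3h2, Dmrtb1, Tns4 and Gimap6 completed the 15 with Sall1. 0 of the 15 are neuronal or glial list genes, but those lists hold only 105 and 57 of the 18295 tested genes.

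The 15 largest rises among genes with at least 10 CPM in IRF8KO all rose at P9 too. 0 of the 15 are neuronal or glial list genes, which number only 105 and 57 of 18295 tested genes. Of the risen list genes, 41 of 89 neuronal and 20 of 40 glial genes reached 10 CPM in IRF8KO. Clec12a (chr6:129342691-129365303) and Clec7a (chr6:129461591-129472779), C-type lectin receptors of myeloid cells, had 0 reads in WT and read 75.0 to 125 CPM and 18.6 to 151 CPM in IRF8KO, at least 1143-fold and 1129-fold higher. Cd38, an enzyme that consumes NAD, was at least 514-fold higher, Ms4a4a at least 456-fold, Tlr8 at least 372-fold, Trem1, an amplifier of inflammation, at least 366-fold and Cd163, a haemoglobin scavenger receptor, at least 352-fold. The TGF-beta superfamily ligand Gdf3 read 0 to 0.258 CPM in WT and 207, 356 and 863 CPM in IRF8KO (11.57 ± 0.83, adjusted p = 1.1e-07). Pf4, a platelet and macrophage chemokine, read 0.859 to 2.36 CPM in WT and 1252, 1685 and 3340 CPM in IRF8KO. The levels of Clec7a (18.6 CPM in library 3 against 97.1 and 151), Tlr8 (0.598 against 35.3 and 50.2) and Cd163 (5.27 against 37.0 and 41.2) were lowest in library 3. Vnn3 rose from 1 read in the WT group to 47.3 to 56.8 CPM, a ratio of 1774 (exact 95% interval 318 to 70120).

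**Figure D4:**
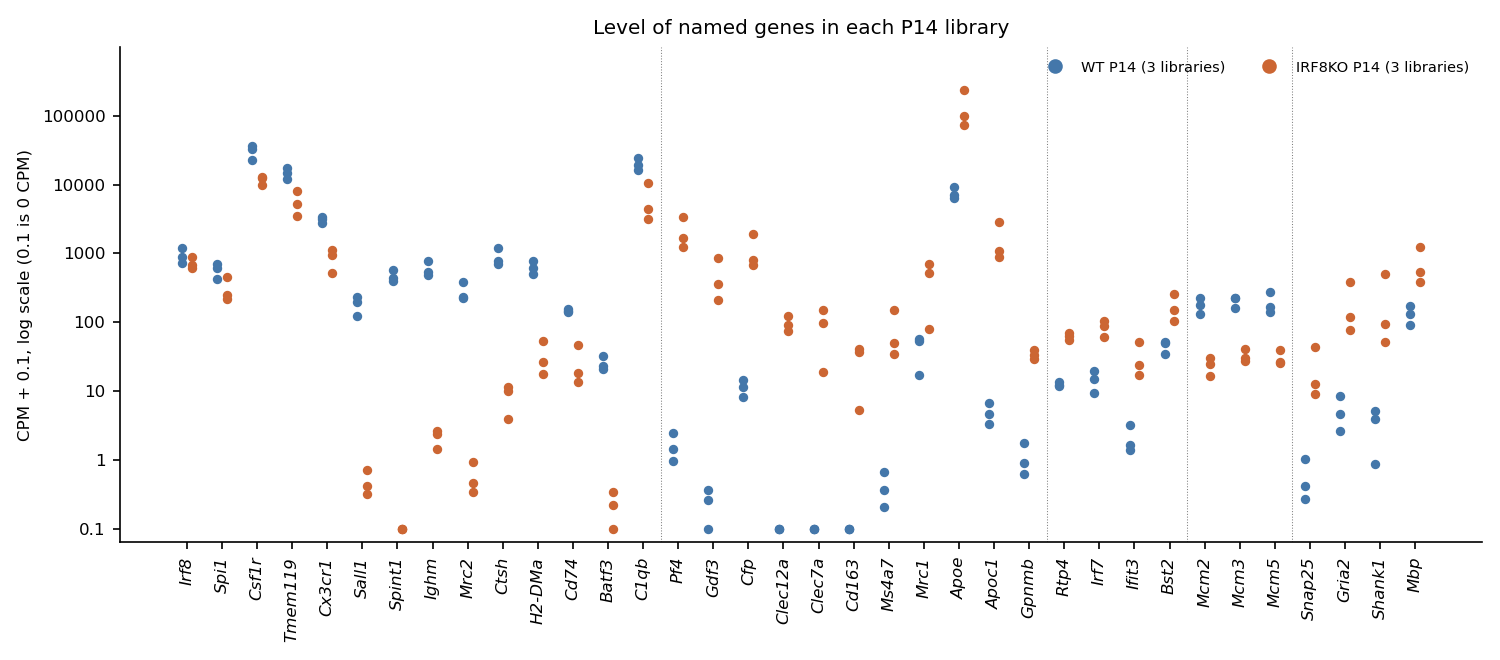
Level of named genes in each P14 library, as CPM plus 0.1 on a log axis where 0.1 stands for 0 CPM, with WT and IRF8KO in different colours. Spint1 is at 0 in the 3 IRF8KO libraries and Clec12a and Clec7a at 0 in the 3 WT libraries.

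Border-associated macrophage genes rose at both ages. Of 18 tested genes, 13 rose and 0 fell at P14 (72.2% and 0%, beside 23.1% and 10.9% of all tested genes). The median at P14 was 3.35, 14 rose at P9 and 11 did so at both. Their summed level was 0.109%, 0.140% and 0.122% of gene reads in WT and 0.717%, 0.698% and 0.524% in IRF8KO. Ms4a7 read 0.103 to 0.555 CPM in WT and 34.2, 50.4 and 152 CPM in IRF8KO (7.90 ± 0.65, adjusted p = 3.8e-07). Siglec1, a sialic acid receptor, rose by 3.38 and Dab2, an endocytic adaptor, by 3.32. Mrc1, the mannose receptor, read 16.9 to 57.5 CPM in WT and 703, 516 and 78.6 CPM in IRF8KO. Lyve1 read 0 CPM in all 6 libraries, and Folr2 (0.219 to 0.793 CPM) and Clec10a did not pass.

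Lipid genes were led by the apolipoproteins of the Apoe cluster on chromosome 7. Apoe, the carrier of cholesterol in the brain, made 0.565% to 0.631% of gene reads in WT and 9.41%, 10.8% and 18.8% in IRF8KO (4.18 ± 0.54 on the log2 scale, adjusted p = 3.2e-05), and also rose in adults. Its log2 fold change was 1.70 with the neuron list level in the model and did not pass (adjusted p = 0.351). Apoc1 read 3.26 to 6.57 CPM in WT and 896, 1099 and 2874 CPM in IRF8KO (8.40 ± 0.56, adjusted p = 1.1e-07). Apoc4 rose by 9.98. Acaca, a step of fatty acid synthesis, rose by 3.72 while Fasn, the next enzyme, fell by 1.33. Over the list of 23 genes 7 rose and 3 fell (30.4% and 13%), near the 23.1% and 10.9% of all tested genes. Disease-associated microglia genes also went both ways, with 13 of 26 higher and 6 lower. These shares, 50% and 23.1%, lay above the 23.1% and 10.9% of all tested genes. Cst7, Itgax, Csf1 and Gpnmb rose, by 1.95 to 5.11, and Axl, Serpine2, Ccl6, Cd52, Timp2 and Ctsl fell, Serpine2 by 4.25. Among 18 C-type lectin and TREM genes 8 rose, all 8 also at P9, and Treml2 fell (44.4% and 5.56%, beside 23.1% and 10.9%).

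**Figure D5:**
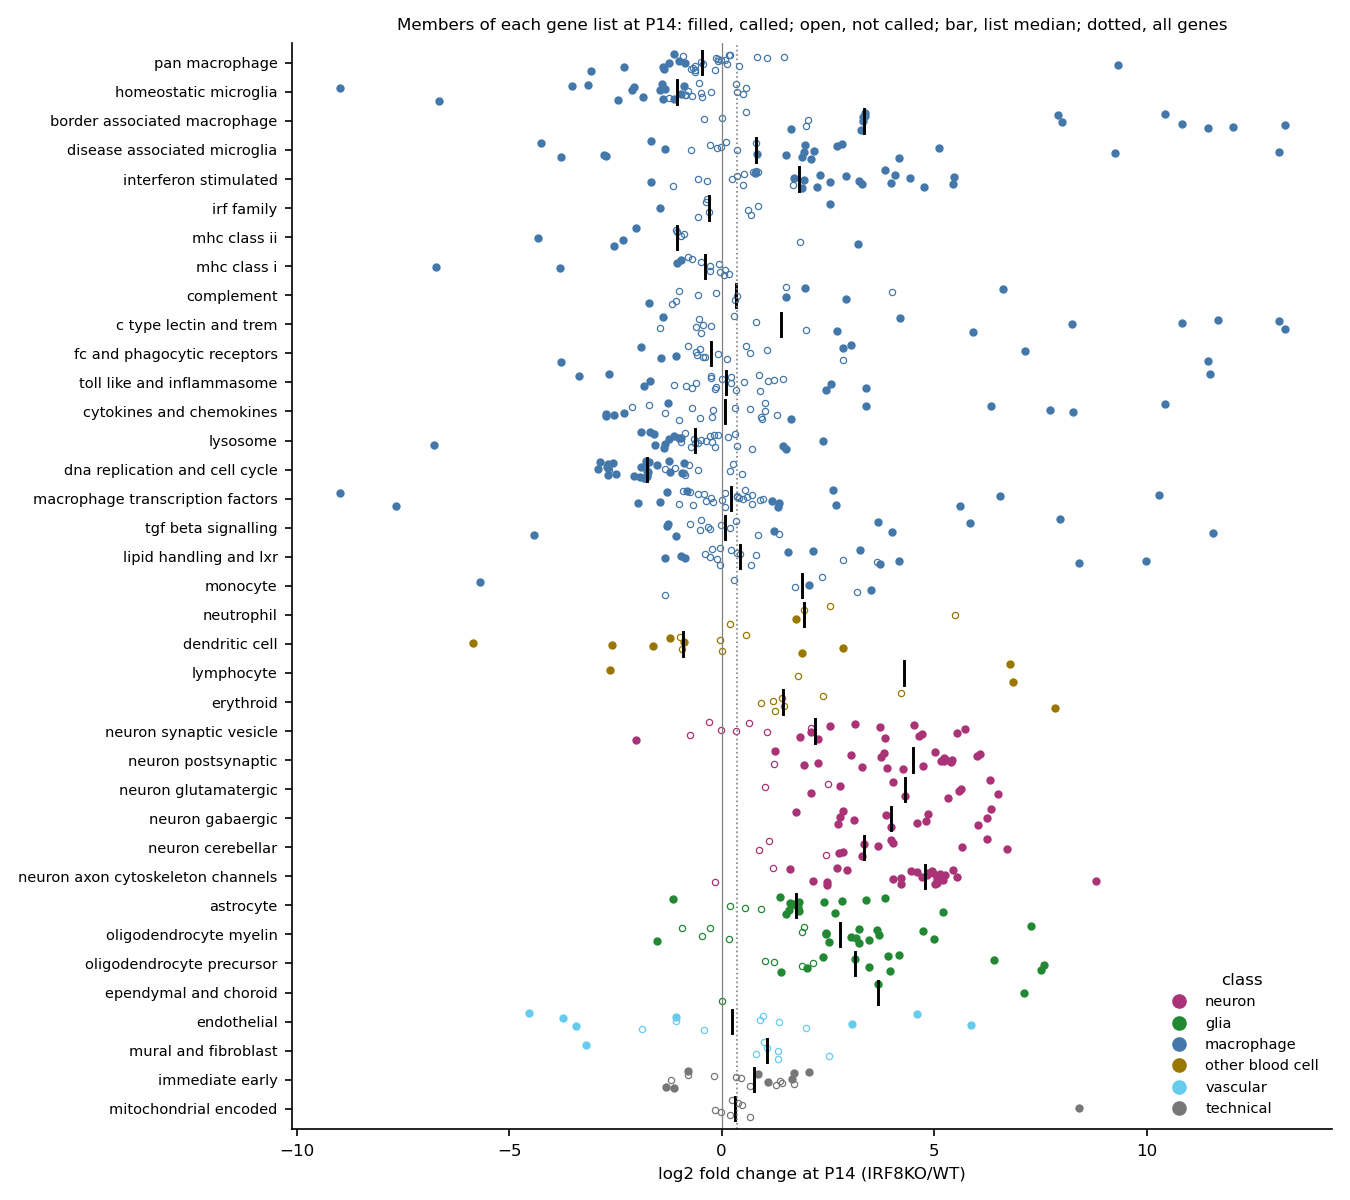
Log2 fold change at P14 of every tested member of each gene list, one row per list, filled where called and open where not, with the list median as a bar and the all-gene median of 0.37 as a dotted line. Neuronal and glial lists lie mostly to the right of the dotted line and the cell cycle list to its left.

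Interferon-stimulated genes rose in part. Of 30 genes 17 rose and 1 fell (Ifitm3), which is 56.7% and 3.33% beside 23.1% and 10.9% of all tested genes. The median was 1.81, and 9 rose at P9 too. Their summed level was 0.0302%, 0.0321% and 0.0368% of gene reads in WT and 0.126%, 0.0800% and 0.0592% in IRF8KO. Ifit3, an antiviral protein, read 1.27 to 3.08 CPM in WT and 17 to 51.4 CPM in IRF8KO (3.98 ± 0.53, adjusted p = 4.3e-05). Irf7, a driver of interferon production, rose from 9.12 to 19.1 CPM to 60.4 to 104 CPM, and Rtp4 from 11.6 to 13.6 CPM to 54.3 to 68.6 CPM. Isg15, Oas2, Oasl2 and Bst2 rose as well. Ifih1, Mx2 and Usp18 did not pass. With the neuron list level in the model 5 genes of the list passed (median 3.46), and with the share of reads outside genes 9 (median 1.68). The groups do not overlap in either covariate at P14, so these medians do not show whether the fold held. Of the 9 IRF genes, Irf7 rose, Irf5 fell (-1.44) and the other 7, Irf8 included, did not pass.

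Upstream sequences were searched for the 2 elements to which IRF8 and its relatives are known to bind. The 250 bases before the RefSeq start (GRCm38.p6) were read on both strands for the ETS-IRF composite (GGAA, any 2 bases, then GAAA) and the core of the interferon-stimulated response element (GAAA, any 2 bases, then GAAA). The composite was found in 2.4% of 11771 genes with a sequence, in 2.64% of higher and 1.85% of lower genes. The response element core was found in 3.25% of all, 4.34% of higher, 2.97% of lower genes, 7.67% of those higher at both ages (26 of 339) and 9 of 22 interferon-stimulated genes (40.9%), against 5.8% of the neuronal list. These are matches of letters and no measure of binding. The sequences shown are those of Clec7a (chr6:129472780-129473029, minus strand), the only 1 of the 15 largest rises with a composite match, Ifi207 (chr1:173741810-173742059, minus strand), the only 1 of them with a response element match, and the response genes Ifit3 (chr19:34583279-34583528, plus strand), Isg15 (chr4:156200819-156201068, minus strand) and Bst2 (chr8:71537473-71537722, minus strand). Each is printed 5′ to 3′ in the direction of the gene, with the matched bases in capitals. RefSeq gives Clec7a a pair of starts 6 bases apart, and the sequence before 1 of them is shown.
Clec7a: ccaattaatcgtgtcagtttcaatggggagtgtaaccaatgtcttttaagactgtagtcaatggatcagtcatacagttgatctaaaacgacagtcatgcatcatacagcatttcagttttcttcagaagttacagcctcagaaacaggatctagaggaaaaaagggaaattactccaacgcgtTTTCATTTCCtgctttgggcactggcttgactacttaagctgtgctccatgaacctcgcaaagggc
Ifi207: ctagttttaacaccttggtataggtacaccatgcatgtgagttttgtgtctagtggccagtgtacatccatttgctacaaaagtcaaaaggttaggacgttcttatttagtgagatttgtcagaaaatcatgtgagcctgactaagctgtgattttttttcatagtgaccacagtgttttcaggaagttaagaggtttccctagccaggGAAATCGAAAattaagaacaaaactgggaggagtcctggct
Ifit3: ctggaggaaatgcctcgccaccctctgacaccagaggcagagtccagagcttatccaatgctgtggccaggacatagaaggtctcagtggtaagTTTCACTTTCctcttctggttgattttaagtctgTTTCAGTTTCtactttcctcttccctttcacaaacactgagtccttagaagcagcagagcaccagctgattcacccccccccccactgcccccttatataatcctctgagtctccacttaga
Isg15: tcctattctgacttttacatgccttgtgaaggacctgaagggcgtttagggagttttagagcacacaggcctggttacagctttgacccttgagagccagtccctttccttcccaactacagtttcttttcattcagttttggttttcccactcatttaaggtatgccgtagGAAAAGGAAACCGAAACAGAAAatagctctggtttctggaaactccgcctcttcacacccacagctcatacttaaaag
Bst2: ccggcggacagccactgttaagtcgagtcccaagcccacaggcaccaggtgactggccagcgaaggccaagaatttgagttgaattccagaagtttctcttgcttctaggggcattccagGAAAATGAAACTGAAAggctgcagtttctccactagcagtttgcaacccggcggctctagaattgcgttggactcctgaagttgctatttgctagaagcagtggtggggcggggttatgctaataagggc
In Isg15 the capitals span 3 overlapping response element cores from 78 to 57 bases upstream of the start, in Ifit3 2 cores from 156 and from 122 bases upstream, and in Bst2 2 overlapping cores from 130 bases upstream.

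Antigen presentation genes fell in part. Of 10 MHC class II genes 4 fell and 1 rose (40% and 10%, beside 10.9% and 23.1% of all tested genes). Cd74, the invariant chain, fell from 146, 157 and 141 CPM to 13.2, 18.2 and 46.0 CPM (-2.53 ± 0.42, adjusted p = 2.7e-04), H2-DMa from 509 to 785 CPM to 17.7 to 52.3 CPM, and H2-Ab1 and H2-Ob fell. Ciita, the transactivator of these genes, rose from 0.159 to 0.411 CPM to 0.802 to 5.98 CPM. With the neuron list level in the model its direction turned (-1.91, adjusted p = 0.577), while Cd74 and H2-DMa stayed lower. MHC class I genes fell for 4 of 14 (Tap1, Psmb8, H2-Q6 and H2-Q7), which is 28.6% beside 10.9% of all tested genes, and rose for 0. The summed class I level did not fall. It was 0.342%, 0.351% and 0.352% of gene reads in WT and 0.397%, 0.363% and 0.383% in IRF8KO. The summed class II level had a mean of 0.0841% in WT and 0.0181% in IRF8KO. H2-K1, H2-D1 and B2m, the main class I chains, did not pass, but H2-K1 rose with the share of reads outside genes as a covariate (1.14, adjusted p = 0.0224). H2-Q6 and H2-Q7 are near-identical copies whose reads cannot be assigned with certainty.

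In complement, 4 of 14 tested genes rose and 1 fell (28.6% and 7.14%), near the 23.1% and 10.9% of all tested genes. Cfp, properdin, read 8.17 to 14.5 CPM in WT and 667, 792 and 1900 CPM in IRF8KO (6.62 ± 0.56, adjusted p = 4.7e-07), and 6.63 at P9. C3 rose by 2.92, and its P14 effect was larger than at P9 by the interaction test (adjusted p = 0.017). C3ar1 rose from 164 CPM in all 3 WT libraries to 385 to 561 CPM. C1qb, a chain of the recognition protein C1q, fell by 1.72, from 16130 to 24000 CPM to 3197 to 10510 CPM, and C1qa and C1qc did not pass.

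Of 31 lysosome genes, 11 fell and 3 rose (35.5% and 9.68%, beside 10.9% and 23.1% of all tested genes). Ctsh, a cathepsin, fell from 1203, 771 and 700 CPM to 9.92, 3.75 and 11.1 CPM (-6.76 ± 0.46, adjusted p = 1.1e-07), and it fell at P9 (-7.51). Psap, Npc1, Tfeb, Cd68 and Lgmn fell by 1.11 to 1.90. Galc, which degrades a myelin lipid, rose from 5.55 to 15.7 CPM to 25 to 88.0 CPM, Cd63 by 1.51 and Ctsc by 1.44. Of 20 phagocytic receptor genes 4 rose and 4 fell (20% and 20%, beside 23.1% and 10.9% of all tested genes). Axl, a receptor for apoptotic cells, fell from 84.2 to 146 CPM to 7.65 to 9.85 CPM (-3.79 ± 0.46, adjusted p = 1.6e-05). Among 26 Toll-like and inflammasome genes 4 rose, of which Tlr8 was the largest, and 4 fell, among them Tlr5 (-3.35) and Tlr9 (-2.65). The shares of that list, 15.4% and 15.4%, lay below and above those of all tested genes.

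Of 26 cytokine and chemokine genes, 6 rose and 5 fell (23.1% and 19.2%, beside 23.1% and 10.9% of all tested genes), so that here too the share that rose was at the background. Il1rn, the antagonist of the interleukin-1 receptor, read 0 to 0.238 CPM in WT and 5.75 to 11.6 CPM in IRF8KO. The neutrophil chemokines Cxcl1 and Cxcl2 had 0 reads in WT and 1.92 to 3.98 and 2.04 to 2.26 CPM in IRF8KO. Ccl6, Ccl9 and Ccr1 fell, by 2.54 to 2.73. Tgfb1 fell from 381 to 502 CPM to 132 to 239 CPM (-1.25 ± 0.32, adjusted p = 0.0070), a change larger than at P9 by the interaction test (adjusted p = 0.011).

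Cell cycle genes fell at P14. Of 35 tested genes 24 fell and 0 rose (68.6% and 0%, beside 10.9% and 23.1% of all tested genes). The median was -1.75, and at P9 0 passed. Of the 24, the fall of 7 (Mcm2, Mcm3, Mcm5, Mcm6, Ccne1, Plk1 and Birc5) was larger at P14 by the interaction test. Mcm2, a subunit of the replicative helicase, read 177, 225 and 130 CPM in WT and 24.9, 29.7 and 16.3 CPM in IRF8KO (-2.91 ± 0.38, adjusted p = 3.0e-05). Rrm2, for nucleotide synthesis, fell by 2.87 and Plk1, a mitotic kinase, by 2.67. The list's summed level was 0.0896%, 0.120% and 0.0950% in WT and 0.0415%, 0.0354% and 0.0263% in IRF8KO, without overlap. Mki67 (-0.76) did not pass. With the neuron list level in the model, which cannot be told apart from genotype at P14, 0 passed. The list median was then -1.82, and the standard errors grew. With the share of reads outside genes 10 passed (median -1.26), and with scaling to the pan-macrophage list 15 (median -1.16).

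Of 36 transcription factor genes of macrophages, 8 rose and 6 fell (22.2% and 16.7%, beside 23.1% and 10.9% of all tested genes), so that the share that rose was at the background. Runx2 had 0 reads in WT and 8.14 to 16.7 CPM in IRF8KO, Bhlhe40 read 0.172 to 1.67 CPM and 31.1 to 56.1 CPM, and Bhlhe41 rose by 2.70. The falls were those of Sall1, Batf3, Irf5, Smad3, Etv5 and Tfe3. Spi1, the PU.1 gene, read 431 to 703 CPM in WT and 218 to 455 CPM in IRF8KO and did not pass (-0.91 ± 0.39, adjusted p = 0.077). In TGF-beta signalling, 6 of 20 rose and 4 fell (30% and 20%), the falls including Acvrl1 (-4.42) and Smad3 (-1.28).

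A few genes of the macrophage lists had the pattern of the neuronal genes. Tgfbr3, Tgfb2, Itgb8, Megf10, Tyro3 and Pparg read at most 0.924 CPM in every WT library, rose at P14, had a negative log2 fold change at P9 (Tgfb2 -5.78 and Tgfbr3 -4.50, both called) and differed between ages by the interaction test. Tgfbr3 read 1.68, 1.01 and 4.91 CPM in IRF8KO and Megf10, a phagocytic receptor that astrocytes use, 1.02, 0.390 and 2.87 CPM. Flt3, a receptor of dendritic cell progenitors in the dendritic cell list, rose from 0.411 to 2.49 CPM to 5.98, 8.90 and 17.5 CPM and was lower at P9 (-4.48). They were named after their values were seen. All 7 read highest in library 3 of IRF8KO, as did 3241 of all 4235 higher genes.

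Of 29 tested genes of other blood cells 6 rose and 6 fell (41.4% called), and of 21 vascular genes 3 rose and 5 fell (38.1%), beside 34% of all tested genes. Of 8 monocyte genes 2 rose (Fn1 and Nr4a1) and 1 fell (Plac8), of 5 neutrophil genes 1 rose (Cxcr2), of 12 dendritic cell genes 2 rose and 5 fell, of 4 lymphocyte genes 2 rose and 1 fell, and of 8 erythroid genes 1 rose. Haemoglobin genes varied widely, Hbb-bs from 91.5 to 743 CPM in WT and 346 to 1066 CPM in IRF8KO, and did not pass. Cd79b, an antigen receptor chain of B cells, fell from 227 to 310 CPM to 24 to 61.0 CPM, at P9 as well. Of 14 endothelial genes 3 rose and 4 fell, and Eng, the member with the smallest adjusted p, fell from 126 to 182 CPM to 11.7 to 16.8 CPM. Of 7 mural and fibroblast genes Pdgfrb fell, and of 3 ependymal and choroid genes Ttr and Folr1 rose. Of 18 immediate early genes 5 rose and 3 fell (27.8% and 16.7%, beside 23.1% and 10.9% of all tested genes). Of 8 mitochondrial genes mt-Nd3 alone passed, with 0 reads in WT and 0.958 to 4.96 CPM in IRF8KO.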

How the data were processed

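The 16 samples were RNA-seq libraries of sorted microglia, made from cDNA after 15 cycles of amplification, per the labels' protocols. The authors deposited whole-number counts of reads per gene for each library, and the unstranded count column was used, since sense and antisense columns were near equal, so reads of a gene and of an overlapping antisense gene cannot be told apart. Per the submitters' processing notes the tools were bcl2fastq, STAR 2.5.2b, Picard 2.17.11, Subread and featureCounts, on mm10, with no role given for each. The 4 summary entries were dropped. Of 55536 genes 18295 passed filterByExpr, and 86 identifiers had no symbol.

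Counts were analysed in R 4.3.3 with edgeR 4.0.16 (TMM factors, quasi-likelihood test, 16 libraries in 6 groups, Benjamini-Hochberg adjustment, called at 0.05) and limma 3.58.1. P-values were two-sided. CPM used TMM-scaled library sizes, and shares are plain percentages of gene reads. Alternatives used DESeq2 1.42.0, RLE factors, other filters, 2 covariates, pan-macrophage scaling, a replicate block and leaving out libraries. A fold against 0 reads was computed against 3 reads over the group. Such floors and the exact 95% interval of a ratio cover counting error only. Simulated data with changes of 2 and 4 on the log2 scale in 100 genes each gave 79 and 99 recovered, and 11 false calls among 18095 unchanged genes. The changes went up and down in equal number, in genes that were not of low level. No other difference between groups and no effect of transcript length was simulated. The rates therefore do not carry over to the real data, where 34% of genes passed.

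The genes, the 37 lists of 682 genes and the tests were chosen with earlier results of these data known. Named genes were Irf8, the 15 largest changes each way with at least 10 CPM in the higher group, no overlap and no predicted-model symbol, and up to 8 list members with the smallest adjusted p. Other list members were named to account for a list, some after their values were seen. Transcript length is that of the longest transcript of the reference annotation. Promoter sequences are from RefSeq, GRCm38.p6. The results of some genes are not reported here.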

Additional observations from a re-analysis of the deposited data

Results flagged for a closer look

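The genotype effect differed between P14 and P9, by the interaction test over all 18295 genes, for 3857 genes, of which 3334 had a higher effect at P14 and 523 a lower one. Among list genes a higher effect at P14 was called for 94 of 105 neuronal, 33 of 57 glial and 21 of 375 macrophage members. Beside the 18.2% of all tested genes, the macrophage share was the only 1 of these below the background. A lower effect was called for 17 of the 375 macrophage members, beside 2.86% of all tested genes. The values below are the log2 fold change at P14 minus that at P9, as fitted, and depend on the prior count where a group has 0 reads. Of the neuronal genes named in the text, those called were Camk2a (5.08), Dlgap1 (8.22), Elavl4 (8.02), Gabra6 (10.17), Gad1 (11.78), Gria2 (10.51), Grin1 (8.66), Grin2a (10.29), Grin2b (8.76), Kcna1 (12.10), Mapt (8.91), Rbfox3 (7.55), Scn8a (9.77), Shank1 (10.41), Slc17a7 (6.63), Snap25 (9.10), Sv2a (2.62), Sv2b (9.39), Syt1 (8.09), Tubb3 (3.60) and Zic1 (7.68). Of the glial genes, the ependymal and choroid list included, they were Aldoc (3.25), Aqp4 (5.94), Folr1 (9.34), Mbp (1.89), Slc1a2 (4.65), Slc1a3 (1.84) and Ttr (6.06). Of the macrophage list genes they were Acaca (2.16), Apoc1 (1.97), Birc5 (-2.10), C3 (1.88), Ccne1 (-1.79), Ciita (4.55), Coro1a (-1.86), Cybb (9.10), Etv5 (-1.73), Gpnmb (4.16), Itgb8 (7.76), Mcm2 (-2.40), Mcm3 (-1.79), Mcm5 (-2.27), Mcm6 (-1.48), Megf10 (9.74), Plk1 (-2.39), Pparg (9.15), Runx2 (5.76), Sall1 (5.0), Tgfb1 (-1.70), Tgfb2 (11.63), Tgfbr3 (12.47) and Tyro3 (4.81).

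Genes of other lists or of no list were Dmrtb1 (-4.71), Eng (-1.76), Flt3 (7.33), Ifi207 (5.75), Klk8 (-5.05), Ms4a4a (5.27), Pmp22 (-2.58), Tnfrsf17 (-4.89) and Tns4 (-4.36). Sall1 and Slc1a3 were lower at both ages, and Sall1 had 0 reads in IRF8KO at P9. Reads outside genes, which entered the models only as a covariate, made up a mean of 22.4% of uniquely mapped reads in the IRF8KO libraries at P14, above the 9.71% in WT.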

How the results depend on the processing

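The counts called at P14 (6222, with 4235 higher and 1987 lower) stayed within 1.5 times of these values with RLE factors, with either low-count filter, with DESeq2 and in the fit of the 6 P14 libraries alone. With the share of reads outside genes as a covariate they were 3481, 2684 and 797, and with the neuron list level 415, 227 and 188. Scaling to the pan-macrophage list left 822 lower genes. Leaving out each P14 library in turn gave 4588 to 5886 calls, 3166 to 4025 higher and 1296 to 2286 lower, and the fewest lower calls came without WT library 1.

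Neuronal rises (89) fell to 0 with the neuron list level. Glial rises (40) were 22 with the share of reads outside genes, 1 with the neuron list level and 26 without both WT library 1 and IRF8KO library 3, an alternative added after the data were seen. Homeostatic falls (15) were 5 with the neuron list level and 9 with pan-macrophage scaling. Interferon-stimulated rises (17) were 9 with the share of reads outside genes and 5 with the neuron list level. Cell cycle falls (24) were 10 with the share of reads outside genes, 0 with the neuron list level and 15 with pan-macrophage scaling. With the neuron list level the list medians were -1.82 (cell cycle), -1.32 (homeostatic) and 3.46 (interferon-stimulated), and the median SE rose from 0.57 to 1.33. Those medians carry little weight, because that level cannot be told apart from genotype at P14. Leaving out each library gave 78 to 93 neuronal rises, 28 to 41 glial rises, 11 to 16 homeostatic falls, 13 to 15 border-associated rises, 12 to 18 interferon-stimulated rises and 21 to 23 cell cycle falls. The cause of these changes was not tested.

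Replicate numbers did not pair the samples: the correlation of deviations of same-numbered libraries was -0.369, 0.146 and -0.257, and 0 of the 3 WT libraries correlated best with the IRF8KO library of its own number. With the replicate block in the fit of the 6 P14 libraries 1793 genes passed, 1145 higher and 648 lower, with 50 neuronal and 13 glial rises, 9 interferon-stimulated rises and 9 cell cycle falls.

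Of 177 named genes, 17 changed sign with a call on at least 1 side, all with a covariate. With the neuron list level these were Aldoc (-1.27), Cd63 (-0.93), Ciita (-1.91), Cst7 (-0.095), Folr1 (-2.80), Mbp (-0.41), P2ry12 (2.41), P2ry13 (1.08), Shank1 (-0.17), Smad3 (0.093) and Ttr (-3.81). With the share of reads outside genes these were H2-K1 (1.14), Irf8 (0.72), Lgmn (0.071), Psmb8 (0.23), Tap1 (0.14) and Tfe3 (0.054). Over all alternatives 2559 of 2828 values for these genes kept their side of the threshold and, where called, their direction, 229 lost the call and 23 gained it. Depth limits genes with few reads, and IRF8KO libraries held fewer gene reads than WT.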
